A study of Mus musculus with 14 samples.

Results

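TAF9B-only peaks inside genes were the binding regions of the transcription factor subunit TAF9B that lay within the body of a gene, away from both of its ends, and that shared no base with a region bound by RNA polymerase II (POL2). They were chosen from the deposited peak lists by position. A TAF9B peak was a member if it overlapped no POL2 peak, if its midpoint fell inside at least 1 gene locus of the RNA-seq table, and if that midpoint was more than 500 bp from both ends of every locus. The rule gave 2645 members among 10415 TAF9B peaks, which is 25.4% of all TAF9B peaks and 38.1% of the 6946 TAF9B peaks that overlapped no POL2 peak. The other TAF9B-only peaks were 3046 between genes and 1255 at gene ends, and of the TAF9B peaks that overlapped POL2, 2603 lay at gene ends and 866 away from them. The absence of POL2 overlap and the distance to gene ends were fixed by the rule and are given as a description.

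TAF9B is a paralogue of TAF9, a histone-fold subunit shared by TFIID, the complex that recognises core promoters, and SAGA, a coactivator complex that modifies chromatin. POL2 accumulates at the promoters of active genes, so that a peak of TAF9B with POL2 is typically a promoter. Introns and the space between genes hold enhancers, which are short stretches of DNA bound by sequence-specific factors that act on promoters at a distance. In the spinal cord these factors include basic helix-loop-helix proteins, which read the E-box (CANNTG), and homeodomain proteins of the LIM, HOX and MEIS families, which help to set the identity of motor neurons.

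The binding data came from cells of the HBG3 mouse embryonic stem (ES) cell clone, which carries a GFP reporter driven by the Mnx1 promoter, taken to motor neurons as embryoid bodies with retinoic acid and a Hedgehog agonist (SAG) and harvested at day 8 according to the methods of the study. The ChIP was done with a peptide antibody against TAF9B and with the 8WG16 antibody against POL2, with 1 peak list each, and an IgG library was not used here. The RNA-seq data came from C57BL/6 cells and animals: ES cells, embryoid bodies (EB) at days 2, 4 and 6 of the same differentiation, and newborn spinal column, each as 1 library labelled WT and 1 labelled KO, and a WT newborn spinal cord. The ES-derived WT libraries were of the JM8 clone and the KO libraries of the Taf9b_BG10 clone, 1 clone each, in which a LacZ-Neo cassette replaced the coding exons of the X-linked Taf9b gene in male cells. The binding and the RNA were thus measured in different clones and at different days. With 1 library per condition there was no replicate spread to test against, and intervals below are 95% Wilson intervals for shares and exact Poisson intervals for densities, which cover counting error only.

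Taf9b itself went against the labels in culture. It was at 0.537 FPKM in the ES library labelled WT and 3.06 in the one labelled KO. The corresponding pairs were 0.516 and 4.08 FPKM at EB day 2, 1.96 and 4.27 at day 4, and 1.37 and 4.01 at day 6. In spinal column the order was the other way, with 6.65 FPKM in the library labelled WT and 3.31 in the library labelled KO, and spinal cord held 7.44 FPKM. Every direction below is therefore given between libraries by their labels, and it was not tested where in the Taf9b row the reads of the libraries labelled KO lay. FPKM scales the fragments of a gene to its transcript length and to the mapped fragments of the library. It carries no sequencing depth, which is unknown for all libraries.

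The members are easiest to picture from their DNA, and 6 of them are shown because they lie in the 4 host genes that the RNA-seq comparison returns to (Auts2, Slit3, Msi2 and Kif5c), in a Notch coactivator gene, and in Lhx4, a LIM-homeodomain gene of motor neurons. Each is an intronic stretch of the mm9 genome (+ strand, 5′ to 3′), whole or, for the Auts2 and Kif5c members, the central 300 bases of a wider peak. Capitals mark the E-box letters CANNTG and the letters TGACAG, read on either strand, the latter known as a binding sequence of MEIS homeodomain factors.
Auts2 intron 6 of 20, chr5:132061593-132061892, gene on the − strand: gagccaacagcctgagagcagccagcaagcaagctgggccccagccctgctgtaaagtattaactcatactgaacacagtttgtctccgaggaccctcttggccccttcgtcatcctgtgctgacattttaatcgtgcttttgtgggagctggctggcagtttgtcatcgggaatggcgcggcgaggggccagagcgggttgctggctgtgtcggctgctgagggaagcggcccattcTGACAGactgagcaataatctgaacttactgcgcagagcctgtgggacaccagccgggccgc
Msi2 intron 9 of 13, chr11:88203123-88203414, gene on the − strand: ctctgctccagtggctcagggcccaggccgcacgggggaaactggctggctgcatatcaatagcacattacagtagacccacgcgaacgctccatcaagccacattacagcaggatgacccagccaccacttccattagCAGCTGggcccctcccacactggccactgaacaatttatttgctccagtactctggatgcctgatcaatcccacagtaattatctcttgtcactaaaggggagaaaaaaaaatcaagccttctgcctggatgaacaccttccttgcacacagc
Slit3 intron 4 of 35, chr11:35265961-35266203, gene on the + strand: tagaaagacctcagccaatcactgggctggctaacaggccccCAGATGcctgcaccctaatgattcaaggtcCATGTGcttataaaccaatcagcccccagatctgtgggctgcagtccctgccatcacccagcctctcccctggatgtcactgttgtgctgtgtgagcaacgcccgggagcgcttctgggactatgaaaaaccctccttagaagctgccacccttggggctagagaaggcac
Kif5c intron 1 of 25, chr2:49488799-49489098, gene on the + strand: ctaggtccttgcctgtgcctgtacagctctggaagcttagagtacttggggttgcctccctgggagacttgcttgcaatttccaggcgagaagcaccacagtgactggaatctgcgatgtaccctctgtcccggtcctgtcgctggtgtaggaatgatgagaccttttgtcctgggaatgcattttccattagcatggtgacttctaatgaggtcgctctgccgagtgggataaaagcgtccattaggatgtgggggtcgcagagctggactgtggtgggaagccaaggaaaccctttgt
Maml3 intron 1 of 4, chr3:51848561-51848860, gene on the − strand: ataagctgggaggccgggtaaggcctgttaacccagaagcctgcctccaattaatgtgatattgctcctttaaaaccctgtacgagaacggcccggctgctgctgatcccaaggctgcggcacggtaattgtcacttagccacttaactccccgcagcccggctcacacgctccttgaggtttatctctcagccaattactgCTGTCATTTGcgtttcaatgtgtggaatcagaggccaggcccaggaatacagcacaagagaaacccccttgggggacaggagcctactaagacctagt
Lhx4 intron 1 of 5, chr1:157576636-157576778, gene on the − strand: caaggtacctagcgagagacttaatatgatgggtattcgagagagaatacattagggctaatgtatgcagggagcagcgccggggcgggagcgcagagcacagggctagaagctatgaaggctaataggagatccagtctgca

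These 6 members differed in strength and setting. The Kif5c member had a MACS score of 248.06, the Auts2 member 209.75, the Msi2 member 163.84, the Slit3 member 135.6, the Maml3 member 101.02 and the Lhx4 member 51.95, close to the lowest score in the list. The MACS score rises with the evidence for a peak over its background. The Auts2 member lay 30.7 kb from the nearest annotated transcription start site (TSS) but only 0.63 kb from a POL2 peak, and the Maml3 member 60.1 kb from a TSS and 0.92 kb from a POL2 peak. The Slit3 member was 92.1 kb from a TSS and the Msi2 member 33.5 kb, with the nearest POL2 peak 91.5 and 184.8 kb away. The Msi2 stretch held 1 E-box with the letters CAGCTG, the Slit3 stretch 2 E-boxes and the Maml3 stretch 1 E-box that overlapped its TGACAG match. No E-box lay within the Auts2, Kif5c or Lhx4 stretches. The Lhx4 peak is a narrow one of 143 bp, and the window of 200 bp around its midpoint, which is the one counted for all members below, reaches past it and held 1 CAGCTG.

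Members were narrow and of modest score. Their median width was 201 bp, and their median score was 71.8, with the middle 50% between 57.93 and 102.81 and extremes of 50.04 and 1594.83. Peaks between genes had a median of 73.82, TAF9B-only peaks at gene ends 91.09, TAF9B-POL2 peaks away from gene ends 99.6 and TAF9B-POL2 peaks at gene ends 104.89. Only 122 members (4.61%) scored over 200, against 10.3% of TAF9B-only peaks at gene ends and 15.1% of TAF9B-POL2 peaks at gene ends. Members thus overlapped in score with every other class, and their distribution sat nearest to that of the peaks between genes. The 3 members nearest to the limit of 500 bp were in Fam53a (504 bp from an end, score 57.92), Ctf1 (506 bp, 79.56) and Scn1a (507 bp, 81.13), and the 3 peaks just outside it were at Gtpbp3 (497 bp, 50.35), Ddn (495 bp, 112.66) and Emb (492 bp, 69.01).

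**Figure D1:**
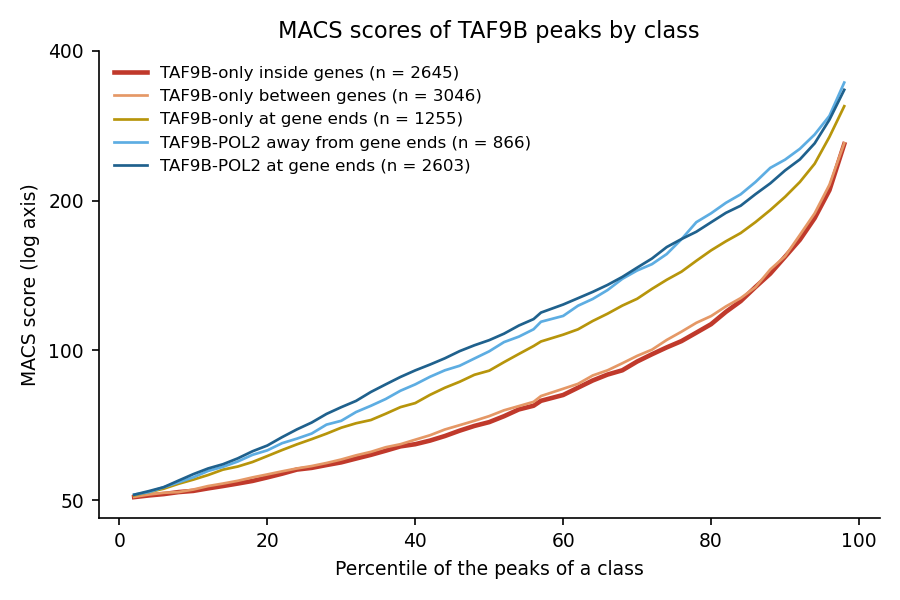
MACS score (vertical log axis) at each percentile (horizontal axis) of the 5 classes of TAF9B peaks set by overlap with POL2 peaks and by position relative to genes, 1 line per class. The members had a median of 71.8, close to the 73.82 of the peaks between genes and under the 104.89 of the TAF9B-POL2 peaks at gene ends.

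The highest scores belonged to a few unusual places. The row of the ribosomal RNA precursor (Rn45s) held 2 members, which scored 1594.83 over 3858 bp and 504.89. Slc38a9, a lysosomal amino acid transporter gene, held 2 adjacent members of 934.4 and 536.43, Helz 1 of 909.2 and Zbtb4 2 adjacent ones of 757.51 and 616.32. Single members of Cyfip2 (715.26), Pde8a (691.17) and Nepn (689.98) completed the 10 highest. Of the 25 highest members, 8 lay within 200 bp of another TAF9B peak, against 69 members (2.61%) in all. Every 36-base word of 2575 members (97.4%) occurred once in the genome, whereas this held for 12 of the 25 highest members. Repeated words were thus more frequent among the highest scores, and their part in those scores was not tested. Because the results below count members and do not weigh them by score, these peaks enter as single members.

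Distance to POL2 was long for most members. The median gap to the nearest POL2 peak was 78.5 kb. It was up to 1 kb for 97 members (3.67%), up to 10 kb for 355 (13.4%) and up to 100 kb for 1509 (57.1%). A member near a POL2 peak was therefore the exception, and the Auts2 and Maml3 stretches printed above are among them, as are single members of Ptch1 (0.801 kb), the Hedgehog receptor gene, and Hoxd3 (0.878 kb).

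Members lay in introns far more often than in exons. Of the 2527 members within a protein-coding transcript, 2321 (91.8%) were in an intron of the longest coding transcript, 134 (5.30%) in a coding exon, 27 in the 5′ UTR and 45 in the 3′ UTR. Exons made up 2.68% of the bases of those transcripts. With each transcript divided into 5 equal parts, the part at the 5′ end held 23.0% of members (21.4 to 24.7) and the other parts 18.3 to 20.6%. Of the 1547 members over 5 kb from every annotated TSS, the part at the 5′ end held 13.6% (12.0 to 15.4). The parts nearest the 3′ end held 24.0 and 23.7% of them. That limit itself leaves out the DNA next to the 5′ end. Of the intronic members of transcripts with at least 2 introns, 31.2% (29.3 to 33.1) were in intron 1, which held 25.7% of the intron bases.

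Some members lay near a start site that the locus table did not carry. A GENCODE TSS was within 500 bp of 325 members (12.3%, 11.1 to 13.6), against 4.37% of the peaks between genes and 92.0% of the TAF9B-only peaks at gene ends. These members scored slightly higher, with a median of 78.95 against 70.97. For example, 3 of the 4 members in Dlg4, a postsynaptic scaffold gene, and 3 of the 10 in Pde4d, a cAMP phosphodiesterase gene, were within 500 bp of an annotated TSS. In contrast, 1613 members (61.0%) were more than 5 kb from every annotated TSS. The label "inside genes" thus described the positions of most members relative to the annotation. Whether the start next to the 325 others was one of the host gene or of another gene was not checked.

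The density of members was higher in the bodies of genes that were expressed at EB day 6. Over the 950.8 Mb of locus interiors there were 2.78 members per Mb (2.68 to 2.89), against 1.93 TAF9B-only peaks per Mb (1.87 to 2.00) between genes. In loci above 1 FPKM in the day 6 library labelled WT, the density was 3.44 per Mb (3.29 to 3.60), and in the other loci 1.82 (1.69 to 1.96), a ratio of 1.89 (1.73 to 2.06). The density went from 1.32 per Mb at up to 0.1 FPKM to 2.29 at 0.1 to 1 FPKM and 3.33 at 1 to 10 FPKM. Above that it was level, at 3.69 per Mb for 10 to 50 FPKM and 3.26 for more than 50. The peaks were measured at day 8 in another clone, so that the FPKM limit is a rough sorting of the genes.

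The same order held within classes of gene length. In loci under 30 kb the density was 4.45 per Mb above 1 FPKM and 3.25 below, in those of 30 to 100 kb 3.21 and 1.96, in those of 100 to 300 kb 3.51 and 1.78, and in those over 300 kb 2.99 and 1.35. Loci above 1 FPKM were denser in each of the 4 length classes. The score moved less, with a median of 68.56 in the loci of lowest and 77.09 in the loci of highest expression.

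**Figure D2:**
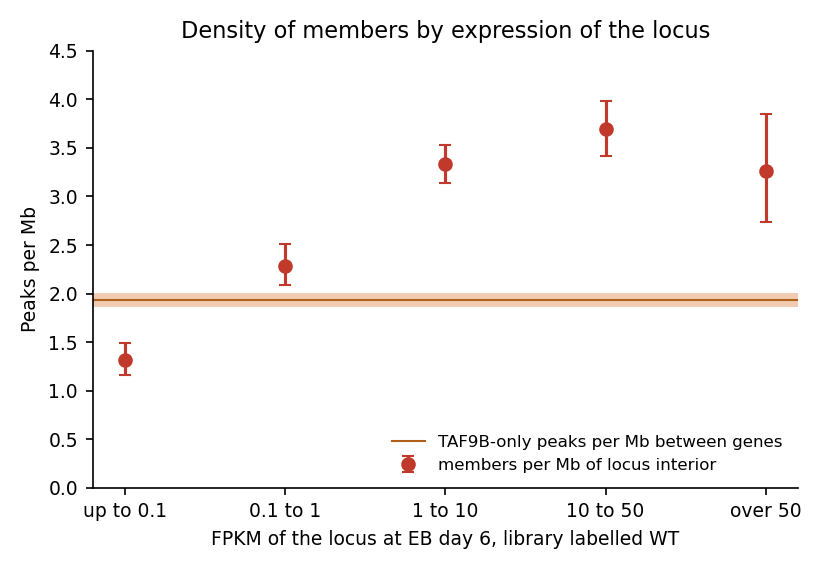
Members per Mb of locus interior (points, with 95% Poisson intervals as bars) by FPKM class of the locus in the EB day 6 library labelled WT, with the density of TAF9B-only peaks between genes as a line and its interval as a band. The density was 1.32 per Mb at up to 0.1 FPKM, under the line at 1.93, and 3.69 at 10 to 50 FPKM, above it.

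POL2 at the ends of the same loci was counted separately in expressed and other loci. Of loci above 1 FPKM, 41.6% of those with a member had a POL2 peak at an end, against 54.3% of those without, and TAF9B peaks lay at an end of 25.1% and 30.1%. Of loci not above 1 FPKM the order was the other way, with POL2 at 7.80% of loci with a member and 3.70% of the others, and TAF9B at 15.1% and 5.12%. The order in loci above 1 FPKM was not the same at every length. For POL2 the shares of loci with a member and of the others were 41.2 and 55.9% under 30 kb, 45.8 and 54.4% at 30 to 100 kb, 38.6 and 44.2% at 100 to 300 kb and, in the other order, 37.9 and 26.5% over 300 kb, where the intervals overlapped (30.4 to 46.0 and 18.2 to 36.9). For TAF9B they were 30.8 and 32.5%, 24.5 and 26.9%, 22.6 and 21.6%, and 22.1 and 26.5%, each closer than over all lengths.

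Base composition and short sequence motifs separated the members from nearby DNA of the same loci. Motifs were searched on both strands of 200 bp around each midpoint, and the comparison windows were the 4568 stretches of 200 bp placed 5 kb to either side within the same locus. The members had a median GC content of 53% and a mean of 5.40 CpG dinucleotides per window, against 46% and 2.31 to the side. In TAF9B-only peaks between genes these values were 52% and 5.06, and in TAF9B-POL2 peaks at gene ends 63.5% and 15.93. Members therefore resembled the peaks between genes in composition and were well short of the CpG content of promoter peaks.

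Of the forms of CANNTG, only CAGCTG and CATCTG were counted separately, and CAGCTG differed more from the side windows. It occurred in 21.1% of members (19.6 to 22.7), 9.68% of side windows (8.85 to 10.6), 20.1% of the peaks between genes, 16.6% of TAF9B-only peaks at gene ends and 10.8% of TAF9B-POL2 peaks at gene ends. The general form CANNTG, which includes it, was in 70.6% of members (68.8 to 72.3) and 67.4% of side windows, so that most of that count was also found in DNA of these loci away from the peaks. With 100 bp searched in place of 200, CANNTG was in 45.9% of members. CATCTG, another form within CANNTG that proneural factors are known to read, was in 18.1% and 16.7%. The share with CAGCTG was 18.5% among the 666 members with the lowest scores and 23.9% among the 662 with the highest. Of the 16 Auts2 members 3 held CAGCTG, of the 13 Msi2 members 5, and of the 9 Slit3 members 1.

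Letters common in promoters were rarer in members than in promoter peaks, with the TATA letters as the exception. The GC box GGGCGG was in 14.3% of members, 3.17% of side windows and 55.9% of TAF9B-POL2 peaks at gene ends. The ETS letters CCGGAAGT, frequent in promoters of housekeeping genes, were in 0.19%, 0.26% and 13.3%. The TATA letters TATAAA were in 5.63% of members, 13.2% of side windows and 3.04% of TAF9B-POL2 peaks at gene ends. The classes differ in GC content, as given above, and its part in these shares was not tested.

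The remaining letters were rarer or differed less in share. TGACAG was in 19.5% of members and 14.95% of side windows, and the RFX letters GTTGCCAT in 1.97% and 0.547%. The core motif of CTCF, an insulator protein, was in 58 members (2.19%) and in 0 of the side windows, against 3.26% of the peaks between genes. The homeodomain letters TAATTA were in 4.99% and 5.78%, the nuclear receptor letters AGGTCA in 10.6% and 12.9%, the POU octamer ATGCAAAT in 2.08% and 1.34% and the SOX letters AACAAAG in 4.35% and 4.82%. The GLI letters TGGGTGGTC were in 7 members and 6 side windows, and the NFI palindrome in 0 and 2. A match is a run of letters and not a bound site, and the antibody does not say which factor, if any, read it.

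**Figure D3:**
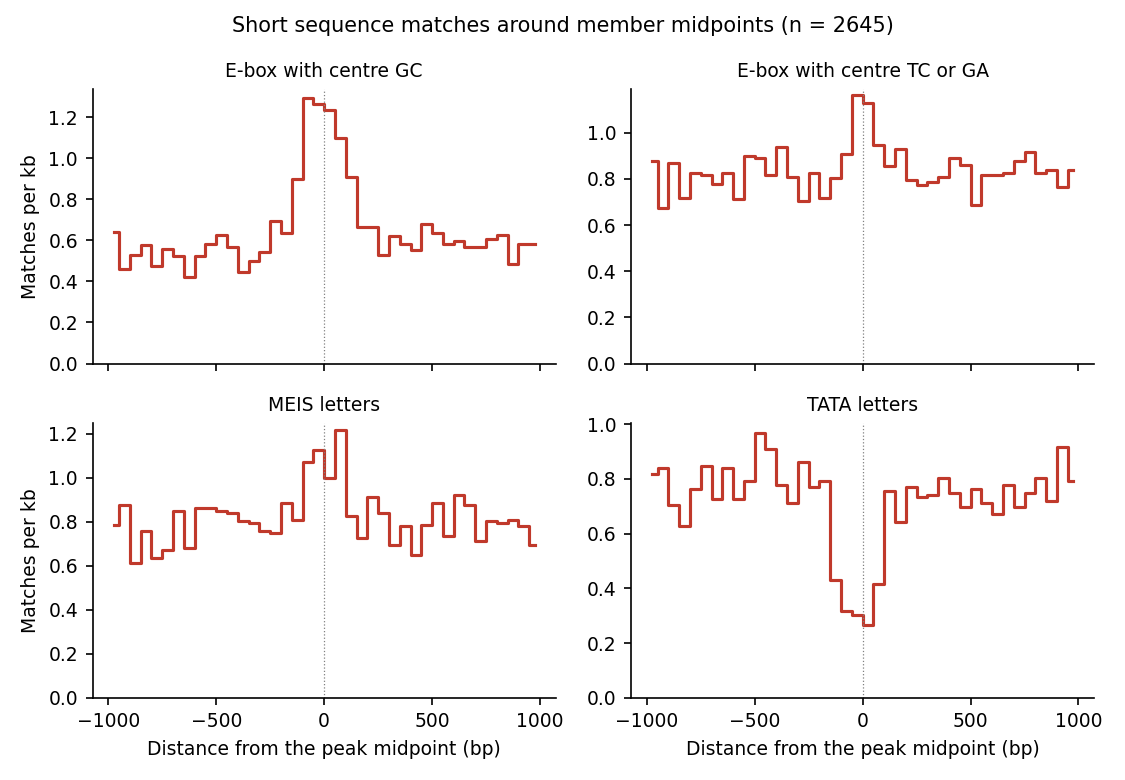
Matches per kb (vertical axes, both strands) by distance in bp from the midpoint of the members, in bins of 50 bp, for 4 of the motifs searched. The E-box form CAGCTG reached 1.29 per kb within 100 bp of the midpoint against 0.42 to 0.64 beyond 500 bp, and the lowest bin of the TATA letters was 0.26 against 0.63 to 0.91.

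The positional profile gave the same order. CAGCTG reached 1.29 matches per kb between 100 and 50 bp from the midpoint, against 0.42 to 0.64 beyond 500 bp. The highest bins for CATCTG and TGACAG were 1.16 and 1.22 per kb, with 0.67 to 0.91 and 0.61 to 0.92 beyond 500 bp. The side windows and outer bins share the loci of the members, so they differ in distance to the peak and not in gene.

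The members fell in 1972 host genes, which are the genes of the loci around them. Of these, 1549 held 1 member, 292 held 2, 74 held 3 and 57 held at least 4. For 18 members no row of the table could be named as host, and 30 had 2 hosts. Host loci had a median length of 78.2 kb against 14.4 kb for other loci, so that a long gene had more room for a member. Another TAF9B peak, of any class, lay within 10 kb of 609 members (23.0%).

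The genes with the most members were long, and several act in neural development. Auts2, a gene required for neural development, held 16, all intronic in 6 introns, with scores of 50.99 to 209.75 and a span of 732.2 kb. Msi2, an RNA-binding translational regulator of neural stem cells, held 13, also all intronic in 6 introns, with scores of 52.78 to 163.84. Pde4d held 10, and Slit3, which encodes a secreted axon repellent, held 9 within a single intron, intron 4, over 258.9 kb. Of these 9, 8 held an E-box, and the printed stretch was 1 of 3 that lay side by side. Prdm16, Fto, Nrxn3, Rnf220 and Kalrn held 7 each, and Skap1, Cdh22 and Myt1l were among those with 6. Per length, the density among these was highest in Cdh22 with 4.87 members per 100 kb of locus and lowest in Nrxn3 with 0.434.

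Host genes were expressed more often than other genes. Of hosts, 68.9% were above 1 FPKM in the EB day 6 library labelled WT, against 51.9% of other genes. In loci under 30 kb the shares were 66.8 and 48.6%, at 30 to 100 kb 73.7 and 63.8%, at 100 to 300 kb 75.9 and 52.1%, and over 300 kb 47.7 and 27.3%. In ES cells they were 62.8 and 50.2%, and in spinal cord 79.8 and 54.4%. In spinal cord among loci over 300 kb, 88.6% of hosts and 53.2% of others were above 1 FPKM.

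Over the differentiation, hosts were called higher more often than the background of all genes. A gene was called if it differed more than 2-fold between 2 libraries and was above 1 FPKM in at least 1 of them, with no test. From ES cells to EB day 6 (libraries labelled WT, whose tables were normalised separately), 391 of 1420 hosts (27.5%) were higher and 225 (15.8%) lower, against 23.1% higher and 15.1% lower among all genes, and 21.2% and 19.6% among other genes weighted to the lengths of the hosts. From ES cells to spinal cord, within one table, 773 of 1666 hosts (46.4%) were higher and 400 (24.0%) lower, against 30.4% and 35.7% among all genes and 37.1% and 32.3% at the hosts' lengths. By length, the shares of hosts and of other genes that were higher at EB day 6 than in ES cells were 30.8 and 26.2% under 30 kb, 23.9 and 15.4% at 30 to 100 kb, 26.4 and 17.5% at 100 to 300 kb and, in the other order, 35.7 and 40.5% over 300 kb, where the intervals overlapped (28.3 to 43.8 and 33.1 to 48.4). In spinal cord they were 37.6 and 26.5%, 36.3 and 25.4%, 47.8 and 38.3%, and 77.0 and 73.9%. Among hosts, higher calls outnumbered lower ones in both comparisons, while among all genes in spinal cord lower calls outnumbered higher ones.

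Between the libraries labelled KO and WT, hosts were called lower more often than other genes at EB day 6 and in spinal column. In ES cells 5 of 1247 hosts (0.401%) were lower and 0 higher, with 0.59% lower and 0.54% higher among all genes. At EB day 2, 13 of 1232 (1.06%) were lower and 11 (0.893%) higher, with a background of 1.4% and 1.19%. At EB day 4, 71 of 1370 (5.18%) were lower and 187 (13.6%) higher, against 4.46% and 12.1%. In ES cells and at day 2 few hosts were called, and at day 4 the shares over all lengths were near the background. At day 4 the share of hosts that were higher differed by length, with 21.1% of hosts (16.9 to 25.9) and 12.8% of other genes (12.0 to 13.6) under 30 kb, 13.1 and 10.03% at 30 to 100 kb, 9.11 and 11.2% at 100 to 300 kb, and 12.9 and 14.4% over 300 kb. The comparison over time and the comparison between labels at day 6 share the day 6 library labelled WT.

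At EB day 6, 247 of 1404 hosts (17.6%, 15.7 to 19.7) had a lower level under the KO label and 112 (7.98%, 6.67 to 9.51) higher, with 9.93% and 10.5% among all genes and 10.8% and 9.96% among other genes weighted to the lengths of the hosts. In spinal column 322 of 1621 hosts (19.9%) were lower and 44 (2.71%) higher, with 8.54% and 9.05% among all genes and 13.4% and 6.04% weighted to length. In bulk samples fewer cells of a type and less RNA per cell cannot be told apart. With 1 FPKM added to both values before the ratio, 12.7% of hosts were lower and 4.20% higher at EB day 6, against 7.02% and 6.32% of all genes and 7.21% and 5.27% of other genes weighted to the lengths of the hosts. The marker genes of the cell types differed between the same libraries. At EB day 6 the summed FPKM of 7 motor neuron markers was 78.3 in the library labelled WT and 3.36 in the library labelled KO, with 7 and 1 of them above 1 FPKM, and those of 6 neuron markers 810 and 108. The 6 ES cell markers summed to 1368 and 3966, and 4 epithelial markers to 165 and 1124. In spinal column the neuron markers summed to 713 and 454, and 5 skeletal muscle markers to 3441 and 5575. The highest single muscle marker stood at 2927 and 4489. Other sets outside the nervous system were lower under the KO label, with 180 and 103 for 4 cartilage markers and 3402 and 2596 for 5 fibroblast markers. The part of cell composition in the shares of hosts was not tested.

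**Figure D4:**
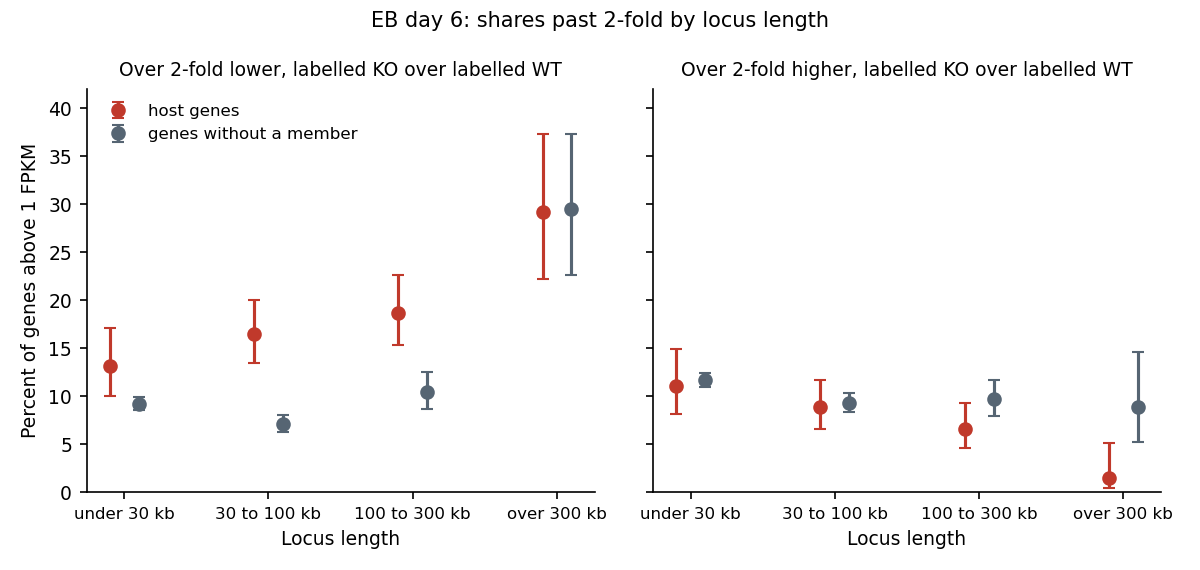
Percent of genes above 1 FPKM (vertical axis) more than 2-fold lower (left) or higher (right) in the library labelled KO at EB day 6, for hosts and for genes without a member, by locus length, with 95% Wilson intervals as bars. In loci over 300 kb 29.2% of hosts and 29.5% of others were lower, while in loci of 30 to 100 kb 16.5% and 7.13% were.

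The difference at EB day 6 was not the same at every gene length. In loci under 30 kb, 13.2% of hosts and 9.24% of other genes were lower, in loci of 30 to 100 kb 16.5% and 7.13%, in loci of 100 to 300 kb 18.7% and 10.4%, and in loci over 300 kb 29.2% and 29.5%. In the longest loci the shares with and without a member were thus close for lower calls. For higher calls the shares of hosts and of other genes were 11.1 and 11.7% under 30 kb, 8.85 and 9.31% at 30 to 100 kb, 6.61 and 9.67% at 100 to 300 kb, and 1.46% (0.401 to 5.17) and 8.90% (5.28 to 14.6) over 300 kb. Hosts with 1 member were lower in 15.1%, those with 2 in 22.0%, and those with at least 3 in 34.7%. Within length classes, hosts with 1 and with 2 or more members were lower in 12.3 and 23.1% (6 of 26) under 30 kb, 14.3 and 28.8% at 30 to 100 kb, 16.6 and 22.9% at 100 to 300 kb and 27.9 and 30.3% over 300 kb. The intervals were apart only at 30 to 100 kb (11.2 to 18.0 and 19.7 to 40.0) and overlapped in the other classes. In spinal column the shares by length were 8.68 and 4.39%, 14.6 and 7.71%, 23.7 and 18.2%, and 39.3 and 28.9%, for hosts and other genes.

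Peaks at the ends of genes did not go with the same shares. Of genes with a TAF9B-only peak at an end and no member, 9.89% were called lower under the KO label at EB day 6 and 11.4% higher. Of genes with a TAF9B-POL2 peak at an end, 7.08% were lower and 2.62% higher, and of genes with neither, 9.49% and 13.3%. The 17.6% of hosts was above all 3, which are not matched to the lengths of the hosts.

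Neural genes made up part of the hosts. Of 394 genes in 7 neural lists that were found in the table, 157 (39.8%) were hosts, against 8.52% of all rows of the table, and they held 317 members (12.0%). List genes were long, and by length the shares of hosts among list genes and all other rows were 8.79 and 3.29% under 30 kb, 36% (27 of 75) and 11.3% at 30 to 100 kb, 49.6 and 23.4% at 100 to 300 kb, and 56.4 and 32.8% over 300 kb. Per Mb of interior, the lists held 3.27 members (2.92 to 3.65), against 2.78 (2.68 to 2.89) in all locus interiors. By length, all loci of 100 to 300 kb held 2.93 per Mb and those over 300 kb 2.03. The 3.44 of all loci above 1 FPKM covers expressed loci only, and the lists were not split by expression. At EB day 6, 57 of 103 of these hosts (55.3%) and 81 of 138 (58.7%) of the other genes of the lists were lower in the library labelled KO, so that the shares of hosts and of other genes were close in these lists. Outside the lists, 190 of 1301 hosts (14.6%) and 963 of 11464 other genes (8.40%) were lower. In spinal column, 87 of 147 hosts in the lists (59.2%, 51.1 to 66.8) and 96 of 201 others (47.8%, 41.0 to 54.6) were lower, with 8.54% among all genes. These intervals overlapped, and the shares are not matched for length. At EB day 4, 12 of 90 list hosts were lower and 12 higher (13.3% each), and among 130 others 33 were lower (25.4%) and 18 higher (13.8%). Among all genes 4.46% were lower and 12.1% higher at that day, so that the shares of higher calls were near the background.

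Among the signalling lists, members were few and their density varied. The Notch list, whose genes control the choice between progenitor and neuron, held 11 members in 6 of its 29 genes, at 8.74 per Mb (4.36 to 15.6). Maml3, a coactivator of Notch, held 4, Maml2 and Notch1 2 each, and Jag1 and Notch3 1 each. At EB day 6 Notch1 was at 5.42 FPKM under the WT label and 2.46 under the KO label, and Maml3 at 3.55 and 1.15. These were the 2 of 5 tested hosts that were called lower, beside 11 of 21 other genes of the list. Among all genes 9.93% were called lower and 10.5% higher, and each signalling list had at most 5 hosts tested. The retinoic acid list held 5 members in 5 genes, among them Cyp26b1, which degrades retinoic acid, and the receptor genes Rara, Rarb and Rxra. Cyp26b1 was at 67.3 and 15.9 FPKM, and 1 of 5 hosts of this list was lower, beside 4 of 11 others. The density of this list was 7.81 per Mb (2.53 to 18.2). The Hedgehog list held 3 members in 3 of 15 genes, at 2.43 per Mb (0.501 to 7.10), under the 2.78 of all locus interiors. Ptch1 was at 11.2 and 4.41 FPKM and was the 1 of 3 Hedgehog hosts that was lower, beside 4 of 11 others. The Wnt list held 9 members in 7 of 42 genes, at 3.504 per Mb (1.60 to 6.65), among them Tcf7l1 and Tcf7l2, transcriptional effectors of the pathway, with 2 members each. Of 5 Wnt hosts 1 was lower and 1 higher, and of 32 others 4 and 6. The Hox list held 2 members, in Hoxa7 and Hoxd3 of 39 genes.

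Neural transcription factors were among the larger lists. Of 102 genes, 32 were hosts with 58 members, at 4.99 per Mb (3.79 to 6.45), and at EB day 6 14 of 24 hosts tested were lower and 0 higher, and of 51 others 32 and 4, with 9.93% and 10.5% among all genes. Lhx4 had 1 member and was at 2.83 FPKM in the day 6 library labelled WT and 0.0214 in that labelled KO, with at most 0.0185 in every earlier library. Myt1l, Ebf1 and Npas3, with 6, 5 and 5 members, were at 15.8, 40.0 and 11.9 FPKM in spinal cord and at 0.212, 2.17 and 0.798 in the day 6 library labelled WT.

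Axon guidance, adhesion and cytoskeletal genes held similar numbers of members. Axon guidance had 53 members in 27 of 57 genes at 4.56 per Mb, with 10 of 22 hosts and 8 of 23 others lower at EB day 6. Neural adhesion had 63 in 30 of 55 genes at 2.22 per Mb, with 10 of 14 and 5 of 7 lower, and neurite cytoskeleton 63 in 27 of 48 at 7.78 per Mb, with 12 of 23 and 15 of 21 lower. Ion channels had 22 in 13 of 45 genes, at 1.62 per Mb (1.02 to 2.46), with 0 of 2 hosts and 2 of 5 others lower. Transmitter receptors and synapse had 31 in 19 of 61, at 1.72 per Mb (1.17 to 2.45), with 6 of 9 and 11 of 15 lower. These 2 densities and that of neural adhesion were under the 2.78 of all locus interiors, though the interval of neural adhesion (1.70 to 2.84) included 2.78. All loci over 300 kb held 2.03 per Mb. Neuronal RNA-binding factors had 27 in 9 of 26 genes, at 4.69 per Mb (3.09 to 6.82), with 5 of 9 and 8 of 16 lower. Among all genes 9.93% were lower and 10.5% higher at EB day 6. Higher calls of hosts and others were 0 and 4 in axon guidance, 1 and 1 in adhesion and 1 and 0 in cytoskeleton. They were 0 and 0 in ion channels, 0 and 1 in transmitter receptors and synapse, and 1 and 0 in RNA-binding factors.

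Auts2, Slit3 and Kif5c illustrate the time course. From ES cells through days 2 and 4 to day 6, the libraries labelled WT held 4.70, 6.58, 5.61 and 11.6 FPKM of Auts2. In those labelled KO it was at 3.92, 7.004, 5.60 and 3.70 FPKM, so that the libraries parted at day 6. In spinal column it was at 8.31 and 3.05, and in spinal cord at 15.8 FPKM. Slit3 was at 8.31, 2.85, 5.96 and 8.94 FPKM in the libraries labelled WT and 8.76, 1.64, 2.81 and 2.85 in those labelled KO, and at 6.10 and 2.62 in spinal column. In spinal cord it was at 2.49 FPKM, under its ES level, unlike Auts2. Kif5c, a neuronal kinesin motor, was at 5.39, 5.35, 9.07 and 16.2 FPKM and 6.28, 6.09, 6.03 and 2.26, at 40.1 and 13.9 in spinal column, and at 105.8 in spinal cord. Msi2 did not part: it was at 21.5 and 17.1 FPKM at day 6 and 17.1 and 17.3 in spinal column, with 13.7 in spinal cord and 13 members.

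Among hosts above 1 FPKM in both EB day 6 libraries, those with the lowest and highest ratios were picked by size of that ratio, and their values are descriptions. Hosts under that limit in a library, such as Lhx4 and Hoxd3 (17.6 and 0.698 FPKM), were not ranked. The lowest were Mid1, a microtubule-associated ubiquitin ligase gene (96.5 and 1.93 FPKM in the libraries labelled WT and KO), an unnamed row within the span of Nell2 (45.0 and 1.70), Gap43, a growth cone protein (184 and 7.82), Rhbdl3 (20.4 and 1.09) and Phf21b (22.3 and 1.20). The highest were Gipc2 (2.97 and 13.4), Pde8a (1.41 and 6.23), Ascl2 (3.93 and 16.5), Fbp2 (2.42 and 9.75) and Klf4, a pluripotency factor (5.41 and 21.5). Mid1, which is X-linked like Taf9b, was already lower in the ES library labelled KO, at 2.91 against 17.8 FPKM. Gap43 had 1 member, of score 132.99 with CAGCTG, and reached 628 FPKM in spinal cord.

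**Figure D5:**
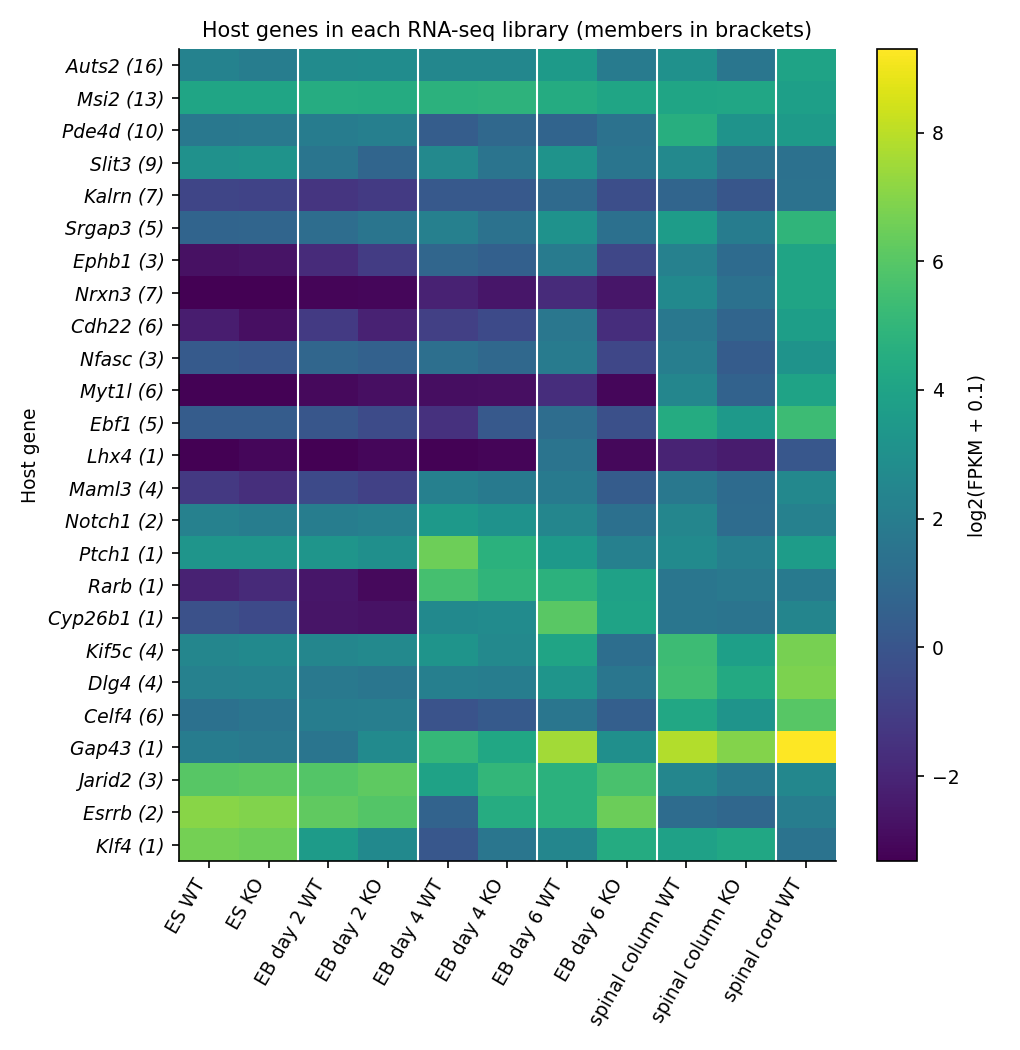
Level of a selection of the named host genes (rows, number of members in brackets) in each of the 11 RNA-seq libraries (columns), with the colour giving the log2 of FPKM after adding 0.1. Auts2 and Kif5c parted between labels at EB day 6 (11.6 and 3.70, 16.2 and 2.26 FPKM), while Msi2 stayed at 21.5 and 17.1 FPKM.

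Pluripotency and reference lists ran the other way or held few members. In the core pluripotency list 6 of 27 genes were hosts with 9 members at 10.2 per Mb (4.67 to 19.4). At EB day 6, 0 of 6 hosts were lower and 3 higher under the KO label, with 0 of 21 others lower and 17 higher. Among all genes 9.93% were lower and 10.5% higher. Esrrb, with 2 members, was at 134.7 FPKM in the ES library labelled WT, 26.9 at EB day 6 and 86.9 in the day 6 library labelled KO. The subunits of SAGA, ATAC and TFIID held 1 member in 37 genes, in Taf5, the respiratory chain genes 0 in 0.555 Mb of interior, and the sarcomere genes 2 in 31 genes. No member lay in Tubb3, Mnx1, Neurog2, Hes6 or Ccnc.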

How the data were processed

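TAF9B and POL2 ChIP-seq peaks were deposited by the authors as 1 MACS list per antibody with a score per peak. Reads were aligned with Bowtie. Whether IgG served as the MACS control is not given in the sources used here. RNA-seq values were deposited by the authors as FPKM per gene, from TopHat and Cuffdiff on mm9 per the submitters' processing notes. The columns of the authors' own comparisons (fold changes and p-values) were not used. The ES library labelled WT appears in 2 tables with values that differ by a constant (median log2 ratio 0.12), so comparisons across tables carry that scale.

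Members were found by midpoint and overlap. Of 23152 rows, 22832 were named by accession, 160 by position with 80% reciprocal overlap, and 160 stayed unnamed. Transcription start sites, exons and introns came from GENCODE vM1, and sequences from the mm9 genome. Calls were ratios over 2-fold with at least 1 library above 1 FPKM, without a test, since each condition had 1 library. Shares have 95% Wilson and densities exact Poisson intervals. Repeats were counted as 36-base words in the genome. The counting steps were tested on simulated data. Alternatives to the overlap, distance, score, locus and FPKM rules are given in the closing section.

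Genes were named by rule: the 10 hosts with the most members, the hosts of the 10 highest scores, up to 5 hosts per gene list, the 5 lowest and 5 highest ratios at EB day 6 among hosts above 1 FPKM in both libraries, the genes that the study examined by ChIP, the 3 peaks on each side of the 500 bp limit, and Taf9b. Not every gene these rules name is described, and a gene and a motif searched are not reported here. The members, gene lists and rules were chosen with earlier results of these data known. Python 3.11.15, numpy 2.4.6, pandas 2.3.3, scipy 1.17.1, numba 0.67.0, matplotlib 3.10.9, samtools 1.23.1 and pyfaidx 0.9.0.4 were used.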

Additional observations from a re-analysis of the deposited data

Results flagged for a closer look

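For 6 named genes the ratio of the library labelled KO to the library labelled WT passed 2-fold in opposite directions at different stages. A stage was counted only if the gene was above 1 FPKM in at least 1 of the compared libraries. Ratios between lower values were left out. In each case the difference was not tested, with 1 library per condition. Of the hosts of members, Ebf1 had a log2 ratio of 2.051 at EB day 4 and -1.55 at EB day 6, Gap43 1.147 at day 2 and -4.553 at day 6, Nrip1 1.032 at day 4 and -1.224 in spinal column, and Wnt5a -1.122 at day 4 and 1.014 at day 6. Some of these ratios rest on low values, as Ebf1 was at 2.17 FPKM at day 6 in the library labelled WT. Of genes without a member, Mnx1 had 1.11 at day 4 and -3.139 at day 6, and Taf9b 2.983 at day 2 and -1.007 in spinal column.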

How the results depend on the processing

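No paired analysis was possible because the labels give no replicate numbers and each condition has 1 library, and for the same reason no replicate could be left out. Of 82 values computed under alternatives, 62 stayed within the counting interval of the reported value or, for the number of members, within 1.5 times of it, and 20 moved further. The number of members was 2016 at 5000 bp from locus ends and 2842 with POL2 peaks above the median score. In each of the 12 settings the share of hosts was above that of all genes, and of other genes at the hosts' lengths, for lower at EB day 6 and for higher than in ES cells, and under both for higher at EB day 6. Keeping only TAF9B peaks above the median score left 1023 members with a median score of 114.92, 20.6% of hosts lower under the KO label at EB day 6 and 30.9% higher at EB day 6 than in ES cells. The share with an E-box was 72.5% for members over 5000 bp from locus ends and 45.9% with 100 bp searched. With NM_ loci alone, 71.6% of host loci were above 1 FPKM. For hosts lower at EB day 6, higher at EB day 6 and higher than in ES cells, the shares were 12.7%, 4.20% and 22.0% with 1 FPKM added, and 20.3%, 10.7% and 31.7% with no filter on low values (all genes 7.02%, 6.32% and 18.0%, and 12.1%, 14.8% and 26.5%). With a filter at 5 FPKM, 14.9% were lower and 23.7% higher than in ES cells (all genes 8.33% and 20.6%), and with ratios centred on the median 24.4% were higher than in ES cells (all genes 18.6%). The density ratio and the share of expressed host loci were 2.38 and 87.1% at a limit of 0.1 FPKM and 1.54 and 42.8% at 5 FPKM. The causes were not tested. Read depth is unknown, and the intervals do not cover variation between cultures or animals.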

Other observations

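Members were unevenly spread over chromosomes. Chromosome 11 held 5.64 members per Mb of locus interior (5.01 to 6.32), chromosome X 0.575 (0.368 to 0.855), and the other autosomes 1.84 to 3.46. TAF9B-only peaks between genes gave 5.04 per Mb on chromosome 11 and 0.168 on X, against 1.52 to 2.72 on the other autosomes, and POL2 peaks 8.07 and 1.06 per Mb on 11 and X. Per 100 loci, members numbered 18.5 on chromosome 11, 19.2 on chromosome 18 and 2.59 on X, and the peaks between genes 20.9, 28.3 and 2.16. On the same scale POL2 peaks numbered 60.8, 53.5 and 18.4 and TAF9B peaks at gene ends 27.0, 21.2 and 5.60. The copy number of these chromosomes in the HBG3 clone is not given in the sources used here, and its part in these densities was not tested. Msi2 and Slit3, with 13 and 9 members, lie on chromosome 11.

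None of the ChIP-qPCR amplicons of the study that were placed on the genome overlapped a member. The distal Lhx4 amplicon (chr1:157597722-157597941) overlapped a TAF9B-only peak between genes, of score 95.17, while the Lhx4 member lay in intron 1 and scored 51.95.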
